A study of Mus musculus with 2 samples.

Results

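Hlf Mecom cells are the cells of mouse bone marrow that carried mRNA of both Hlf and Mecom, a pair of transcription factor genes known as markers of hematopoietic stem cells. They were picked from single-cell RNA libraries of Lineage- cKit+ bone marrow, the fraction that holds blood stem cells and their early progeny. A cell barcode was kept if it showed at least 1000 genes and under 10% mitochondrial unique molecular identifiers (UMIs, each standing for 1 captured RNA molecule). A kept barcode was a member if it had at least 2 Hlf UMIs, at least 1 Mecom UMI, at least 4 UMIs of both together, at most 1 UMI of the lymphoid gene Dntt, and under 0.2% of its UMIs from the myeloid gene Mpo. This gave 418 members among 6080 kept barcodes of the Trsp knockout library and 426 among 8003 of the control library, 844 of 14083 in all.

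The knockout library came from Trsp f/f:Mx1-Cre mice and the control library from Trsp f/f mice, both C57BL/6. Both genotypes carry the floxed Trsp alleles and both received pI-pC, a double-stranded RNA, at 500 µg per mouse in 3 doses given on alternate days. The series gives 7 weeks after birth for the injections, though the wording does not fix the age at each dose, and cells were taken 9 weeks after the last dose. Mx1-Cre answers to interferon and works in many cell types, so deletion was not limited to stem cells, and control mice had no Cre. Cells from femora and tibiae had been frozen and thawed. There was 1 library per genotype, and how many mice went into each is not stated. No difference between genotypes could therefore be tested, and each interval below is an exact 95% interval that covers counting error only.

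Trsp encodes the transfer RNA that brings selenocysteine, the selenium amino acid, to the ribosome. Selenocysteine is read from a UGA codon, which otherwise stops translation, and selenoproteins include glutathione peroxidases and thioredoxin reductases that remove peroxides and keep thiols reduced. Blood stem cells are known to divide rarely, to keep oxidants low and to lose their function when oxidants build up. A UGA read as a stop well before the last exon junction of an mRNA is, as background, the kind of stop that nonsense-mediated decay recognises.

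The selenocysteine codons are shown here because the place of this codon in the mRNA, described below, parted the genes past a 1.5-fold limit from the rest. That split depends on the limit, with Selenot at its edge. Each line gives 30 bases of the coding strand around the first selenocysteine codon, which is in capitals (TGA in DNA letters), from the GENCODE M21 transcripts on GRCm38 (mm10). Selenow, Selenoh, Gpx1 and Gpx4 stand for mRNAs that were lower in knockout members, and Selenos, Txnrd1 and Sephs2 for mRNAs that were within 1.5-fold.
Selenow: tattgtggagctTGAggctataagcccaag
Selenoh: cattgtacgagcTGAcgcgtgtacggccgc
Gpx1: gtcgcgtctctcTGAggcaccacgatccgg
Gpx4: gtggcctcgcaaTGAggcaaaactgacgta
Selenos: tcatctggcggcTGAaactaagactcttgt
Txnrd1: cagtctggctgcTGAggttaagccccagtg
Sephs2: ggcatgaagggcTGAggctgcaaggtcccc
The codon of Selenow lies on the minus strand of chromosome 7 at 15920464 to 15920466, 243 bases before the last exon junction of the transcript. The codon of Selenoh lies on the minus strand of chromosome 2 at 84670381 to 84670383, 204 bases before it. The codon of Gpx1 lies on the plus strand of chromosome 9 at 108339451 to 108339453, 105 bases before it, and that of Gpx4 on the plus strand of chromosome 10 at 80054737 to 80054739, 342 bases before it. The codons of Selenos (chromosome 7, plus strand, 66088844 to 66088846) and Txnrd1 (chromosome 10, plus strand, 82896037 to 82896039) lie in the last exon. Sephs2 (chromosome 7, minus strand, 127273731 to 127273733) has a single exon and no junction.

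The members had 7157665 UMIs in the knockout library and 6218490 in the control library. A member had a median of 14900 UMIs in knockout marrow (4795 to 63525) and 12679 in control marrow (2956 to 54632), against 22444 and 20634 over all kept barcodes of each library. Mitochondrial genes gave a median of 4.65% of a member's UMIs in knockout marrow and 3.81% in control marrow, and the same gap was present over all kept barcodes (4.52% and 3.79%). The libraries shared 39 barcode sequences, no barcode was a member in both, and 5 members carried a shared one. Scrublet, which simulates doublets, marked 5 knockout and 8 control members at the threshold set in the control library.

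The values that chose the members are a description only. Hlf had a median of 8 UMIs per member in knockout marrow (highest 33) and 6 in control marrow (highest 28), and Mecom a median of 2 in each (highest 10 and 9). Of the members, 165 in knockout and 188 in control marrow rested on a single Mecom UMI. Just inside the rule, 34 knockout and 52 control members had exactly 4 Hlf plus Mecom UMIs, and just outside it, 27 and 31 kept barcodes had 3. The limit on Dntt removed 72 barcodes from each library, and the limit on Mpo removed 36 in knockout and 59 in control marrow.

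The listed stem cell markers that the rule did not use stood higher in members than in the other kept barcodes of both libraries. Values from here on are summed UMIs of all members of a library scaled to counts per 1e6 UMIs (CPM). Procr, the endothelial protein C receptor used to sort stem cells, stood at 28.9 CPM in knockout members and 35.5 in control members, against 1.54 and 2.04 in the other kept barcodes. Meis1, a HOX cofactor of stem cells, stood at 275 and 255 CPM in members, against 49.8 and 42.5 in the others. Fgd5, a guanine exchange factor whose reporter marks stem cells in mice, stood at 14.0 and 13.8 CPM, against 0.700 and 0.475. Hoxa9, of the same marker list, stood at 83.1 and 87.8 CPM, against 29.6 and 28.3 in the others. It was about as high, at 90.5 and 80.9 CPM, in lymphoid-primed Dntt progenitors, which are kept barcodes with at least 3 Dntt UMIs and further limits given below.

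Summed lymphoid, myeloid and erythroid markers were lower in members than in the other kept barcodes. Summed megakaryocyte, endothelial and multipotent progenitor markers were higher. The 5 lymphoid markers summed to 9.64 CPM in knockout members and 7.08 in control members, most of it Dntt, and Rag1 was at 0 UMIs in both. Il7r had 1 UMI in each library. The 8 myeloid markers summed to 1152 and 1163 CPM in members, against 14335 and 18175 CPM in the other kept barcodes, with none at 0. The rule limits Dntt and Mpo, so the lymphoid and myeloid sums were partly fixed by the choice of members. The other markers of these classes were also lower in members, Elane for example at 56.9 and 67.5 CPM, against 2975 and 4019. The 5 erythroid markers summed to 14.0 and 8.68 CPM, against 126 and 82.7 in the other kept barcodes. Without the 1 member of each library with the highest sum they came to 6.99 and 8.20 CPM. The 5 megakaryocyte markers summed to 91.1 and 94.2 CPM, against 55.7 and 86.1. The megakaryocyte sum was led by Itga2b and Pf4, which stem cells with a platelet bias are also known to carry. Cd3e and Gzma of T and NK cells, and Cdh5 and Lepr of endothelial and stromal cells, were at 0 UMIs in the members of both libraries. In the same classes, Nkg7, a granule gene of NK cells, had 580 UMIs in knockout and 654 in control members. Pecam1, an adhesion molecule of endothelium and blood cells, had 402 and 283 UMIs, and Emcn, an endothelial sialomucin that stem cells also carry, 136 and 107 UMIs. The 7 endothelial and stromal markers summed to 76.8 and 66.7 CPM in members, against 66.8 and 56.0 (knockout and control) in the other kept barcodes. The 5 dendritic markers, mostly class II genes, summed to 162 and 188 CPM, against 178 and 149, and the 4 multipotent progenitor markers to 738 and 733 CPM, against 449.7 and 439. Of these 4, Cd34 stood at 393 and 398 CPM, against 224 and 220, and Flt3 at 127 and 112, against 69.9 and 49.7. Muc13 stood at 158 and 132 CPM, against 59.6 and 54.3, while Cd48 was lower in members, at 59.8 and 91.0, against 96.3 and 115.

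A few members carried mRNA of a mature cell. A single knockout member held 7816 of the 8075 Igkc UMIs, 4684 of the 5191 Ighm UMIs and 721 of the 752 Jchain UMIs, all antibody genes. A single knockout member held 45 of the 59 UMIs of the erythroid marker Car1. A single control member held 847 of the 928 UMIs of Prg2, an eosinophil granule gene, and a single control member held 133 of the 158 UMIs of the basophil protease gene Prss34. The 6 basophil, mast and eosinophil markers summed to 67.5 CPM in knockout and 270.5 in control members, and to 55.1 and 124 without the 1 member of each library with the highest sum.

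**Figure D1:**
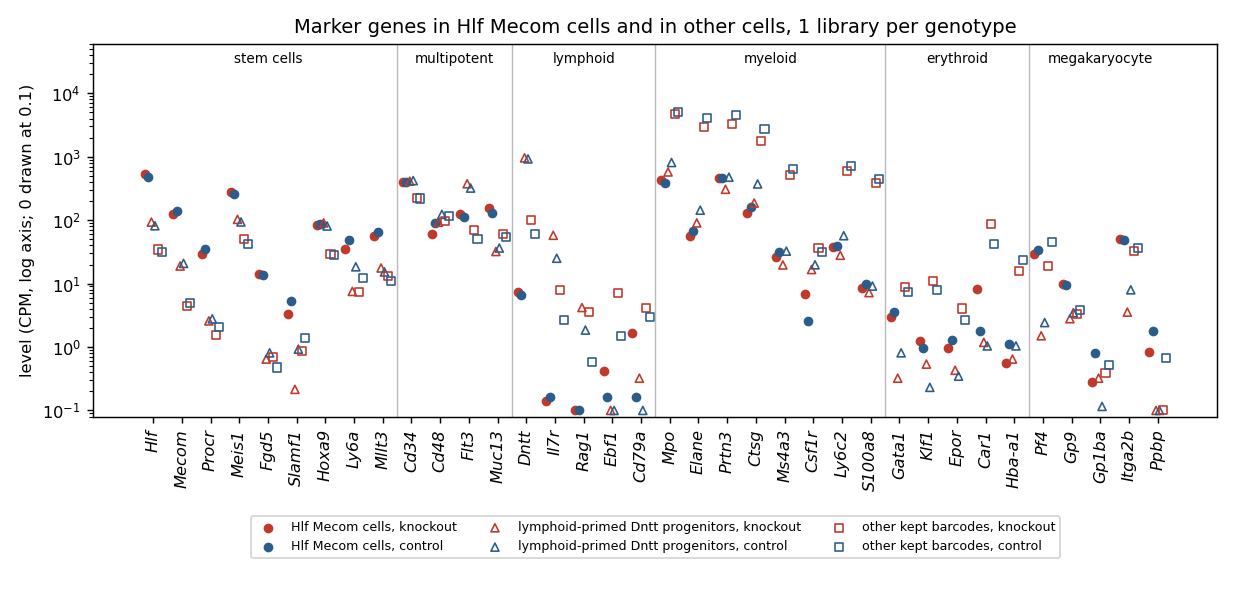
Summed CPM (log axis) of marker genes in Hlf Mecom cells (filled circles), lymphoid-primed Dntt progenitors (triangles) and all other kept barcodes (squares), knockout in red and control in blue, with 0 drawn at 0.1. The other kept barcodes include the lymphoid-primed cells. Procr, Fgd5 and Mllt3 are highest in Hlf Mecom cells of both libraries, while Elane, Ly6c2 and S100a8 are highest in the other kept barcodes.

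Besides the rule genes, many genes stood higher in members than in the other kept barcodes. Of 6078 genes at 20 CPM or more in members of both libraries, 77 (1.27%) were at least 4-fold above the other kept barcodes in both. This is a description, since the members were chosen for 2 of these genes. Iigp1, an interferon-inducible GTPase, was 27.7-fold above the other kept barcodes in knockout marrow and 29.3-fold in control marrow. Mmrn1, a platelet and endothelial adhesion protein, was 19.96-fold and 18.7-fold above them, and Esam, an endothelial adhesion molecule, 20.3-fold and 16.1-fold. Nkx2-3, a homeobox factor, was 17.8-fold and 21.7-fold above them. Tie1, Angpt1, Myct1, Socs3, Hes1, Nr4a1, Nr4a2 and Msi2 also led. Not all leading genes stood as far above lymphoid-primed Dntt progenitors. Log2 ratios of members over those cells in knockout and control marrow were 0.13 and 0.19 for Nr4a1, 0.35 and 0.86 for Hes1, and 0.70 and 1.05 for Msi2. They were 4.64 and 4.93 for Esam, and 3.09 and 3.01 for Mmrn1. Gm5111 and Shisa8, also leading genes, were lower in members than in those cells. Procr was 18.8-fold above the others in knockout marrow and 17.4-fold in control marrow.

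Members made up 6.88% of kept barcodes in knockout marrow (6.25 to 7.54) and 5.32% in control marrow (4.84 to 5.84), a log2 ratio of 0.37 (0.17 to 0.57). The rule counts UMIs, so it admits more barcodes where depth is greater. When every barcode was thinned to 5000 UMIs and 1 UMI each of Hlf and Mecom was asked for, the share was 3.85% of 5578 knockout barcodes (3.37 to 4.39) and 3.15% of 7910 control barcodes (2.77 to 3.56). The log2 ratio was then 0.29 (0.02 to 0.56). Barcodes under 5000 UMIs were left out, which kept 5578 of 6080 knockout and 7910 of 8003 control barcodes. This loss was larger in knockout marrow and took few members, so it could raise the knockout share. Shares of 1 library per genotype say nothing of the spread between mice.

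The members were not uniform. Among 5856 genes with a mean of at least 0.1 UMIs per thinned member, the median Fano factor (variance over mean, 1 for random capture) was 1.05 in each library, and 66 genes had a Fano factor of 2 or more in both. The highest included Fos, Jun and Fosb, immediate early genes that switch on within minutes of a signal or of handling. They also included the division genes Mki67, Hmgb2, Ube2c and Hist1h1b, the class II genes Cd74 and H2-Aa, the cytokine gene Ccl3, and Iigp1. Immediate early genes summed to a median of 44 UMIs per thinned member in knockout marrow (1 to 146) and 51 in control marrow (1 to 204). The 24 G2 and M phase genes had a median of 2 UMIs in each, with highest values of 77 in knockout and 78 in control members. Over members, the sums of the 2 lists had a Pearson correlation of −0.35 in 417 knockout cells and −0.25 in 421 control cells. These sums share each cell's fixed total of 5000 UMIs.

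Selenoprotein mRNAs were lower in Trsp knockout members. Genes with at least 20 CPM in members of either library and 50 UMIs in total count as measured, and a gene is past the fold if the genotypes are at least 1.5-fold apart. Of the 24 selenoprotein genes, 15 were measured, 8 of these were past the fold and lower in knockout members, and 0 were higher. Over all 6546 measured genes, 52 (0.794%) were lower by that fold and 56 (0.855%) higher, 1.65% in all, and 1.6% without the top member of each gene and library. The median log2 ratio of knockout over control was −0.59 for the 15 selenoproteins and 0.0055 over all measured genes. These mRNAs are the check on the genotype labels, because no value of Trsp is used here.

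Selenow, a small redox selenoprotein (ENSMUSG00000041571, chromosome 7, 15917208 to 15922402), gave 162 UMIs in knockout members against 1275 in control members. These are 22.6 CPM in knockout and 205 CPM in control members, a log2 ratio of −3.18 (−3.42 to −2.94). Selenoh, a nuclear redox protein (ENSMUSG00000076437, chromosome 2, 84669215 to 84670770), gave 139 and 1094 UMIs, or 19.4 and 176 CPM, with a log2 ratio of −3.18 (−3.45 to −2.92). These were the deepest falls of the 15, about 9-fold each.

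Gpx1, the cytosolic glutathione peroxidase (ENSMUSG00000063856, chromosome 9, 108338903 to 108340343), gave 1024 UMIs in knockout and 4623 in control members, or 143 and 743 CPM, a log2 ratio of −2.38 (−2.48 to −2.28). Selenop, the secreted selenium carrier, gave 118 and 459 UMIs, a log2 ratio of −2.16 (−2.47 to −1.87). Gpx4, which reduces lipid hydroperoxides and so guards against ferroptosis (ENSMUSG00000075706, chromosome 10, 80047166 to 80056439), gave 676 and 1800 UMIs, or 94.4 and 290 CPM, a log2 ratio of −1.62 (−1.75 to −1.49). Both glutathione peroxidase mRNAs thus remained detectable in knockout members.

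The endoplasmic reticulum selenoproteins fell less. Selenon gave 69 UMIs in knockout and 131 in control members (log2 ratio −1.13). Selenof gave 686 and 930 UMIs (−0.64), and Selenot 309 and 403 UMIs (−0.59), which is at the edge of the 1.5-fold limit. Selenom, below the expression floor, gave 37 and 78 UMIs, a log2 ratio of −1.28 (−1.88 to −0.70).

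The other measured members of the family were within 1.5-fold. The methionine sulfoxide reductase Msrb1 had a log2 ratio of −0.45, Selenok −0.32, Txnrd1, the cytosolic thioredoxin reductase, −0.23 (−0.39 to −0.07), and Selenoi, a phospholipid synthesis enzyme, −0.16. Selenos stood at −0.07, and Sephs2, the enzyme that makes the selenium donor, gave 295 UMIs in knockout and 257 in control members, a log2 ratio of −0.00 (−0.25 to 0.24). Txnrd2, the mitochondrial thioredoxin reductase, had a ratio of 0.46 (0.08 to 0.86). Below the floor, Txnrd3 had 65 and 81 UMIs, Selenoo 88 and 80, and Dio2 39 and 50. Dio1, Dio3, Gpx2, Gpx3 and Selenov had 0 UMIs in the members of both libraries.

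At the 1.5-fold limit, the position of the selenocysteine codon separated these genes. In all 8 measured genes that were past the fold, the first such codon lies between 78 and 470 bases before the last exon junction, with Selenof at the near end and Selenot at the far end. In the 7 that were within the fold, it lies 66 bases before that junction in Msrb1, 5 bases before it in Selenok, and in the last exon in Selenoi, Selenos, Sephs2, Txnrd1 and Txnrd2. The split depends on that limit. Selenot, at its edge, had log2 ratios between −0.77 and −0.53 under the alternative settings, and the weakest of these is within the fold. The intervals of Selenof (−0.79 to −0.50) and Msrb1 (−0.73 to −0.17), on either side of the limit, overlap. Distance did not order the 8 that fell, since Gpx1 at 105 bases fell further than Selenot at 470. The transcripts used are those with the annotated codon, isoforms were not told apart by these 3′ reads, and the part of mRNA decay was not tested.

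**Figure D2:**
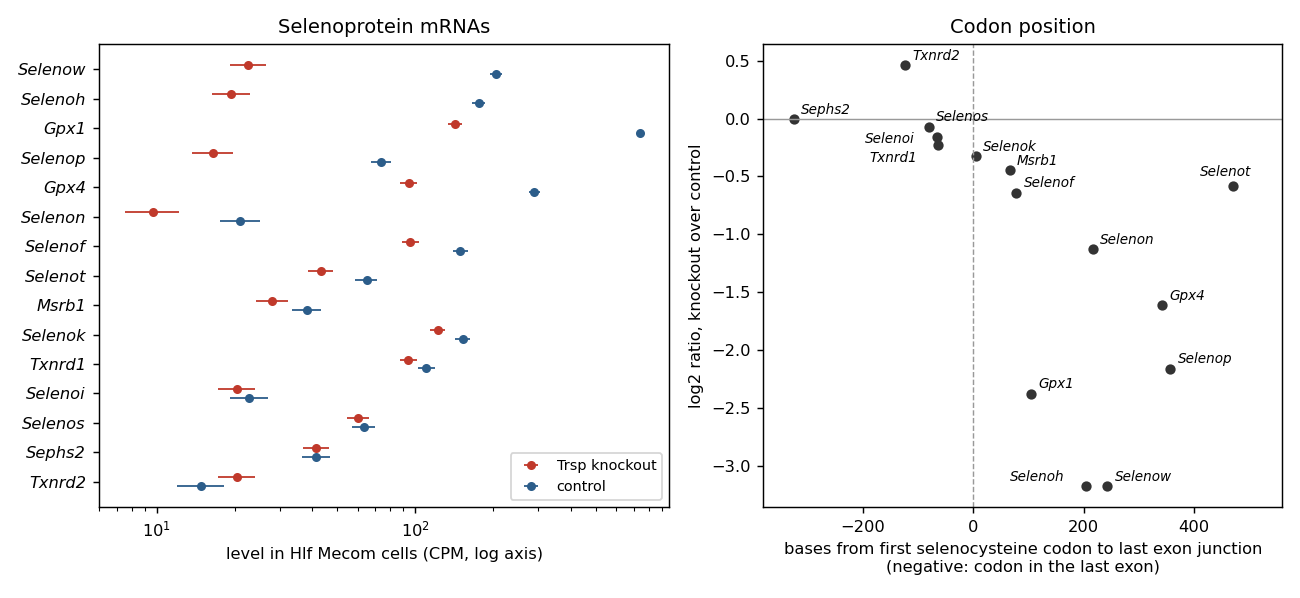
Left, level (CPM, log axis) of the 15 measured selenoprotein mRNAs in Hlf Mecom cells of knockout (red) and control (blue) marrow with exact 95% counting intervals. Right, log2 ratio of knockout over control against the number of bases from the first selenocysteine codon to the last exon junction (negative where the codon lies in the last exon, or, for the single-exon Sephs2, from the transcript's start), with Selenow and Selenoh lowest at −3.18.

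The fall was present across the members, not in a few of them. After each member was thinned to 5000 UMIs, the 24 selenoprotein genes summed to a median of 4 UMIs in 417 knockout members (0 to 11) and 11 UMIs in 421 control members (2 to 22). At least 6 UMIs, the 5th percentile of control members, were found in 103 knockout members (24.7%, 20.6 to 29.1) and 400 control members (95.01%, set by that choice). Only 2 knockout members reached the control median, against 227 control members. The 2 distributions overlap between 2 and 11 UMIs, so a single cell in this range could not be assigned to a genotype by its selenoprotein UMIs.

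**Figure D3:**
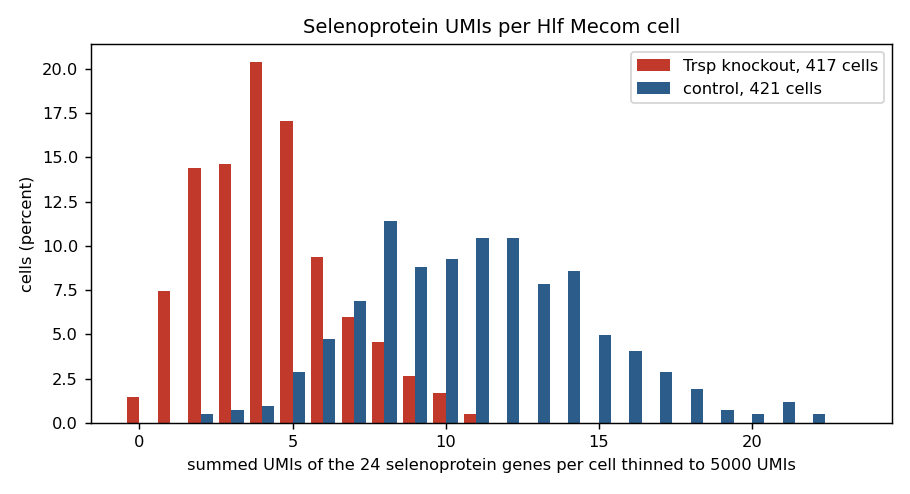
Percent of Hlf Mecom cells (vertical axis) by summed UMIs of 24 selenoprotein genes after thinning to 5000 UMIs (horizontal axis), knockout in red (417 cells) and control in blue (421 cells). The knockout cells centre on 4 UMIs and the control cells on 11.

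The genes that make and insert selenocysteine did not follow the selenoproteins. Of 10 listed genes, 8 were measured, and 0 were past the fold in either direction, with a median log2 ratio of 0.02. The values ran between −0.22 for Sephs1 and 0.28 for Lrp8, the selenoprotein P receptor. Eefsec, the elongation factor for selenocysteine, stood at 19.3 CPM in knockout and 22.5 in control members.

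Transcription factors of stem cells were within the fold with 1 exception. Of 29 listed regulators, 24 were measured, 0 were higher and 1 was lower, and the median was 0.06. The exception was Hmga2, a chromatin protein of fetal and young stem cells, with 91 UMIs in knockout and 200 in control members (12.7 and 32.2 CPM, log2 ratio −1.34, −1.71 to −0.97). Meis1 had a log2 ratio of 0.11 (0.01 to 0.21), Gata2 0.03, Runx1 0.24, Mllt3 −0.21, and Rora, the highest of those measured, 0.43. Below the floor of 20 CPM, Hivep2, a zinc finger factor, gave 136 UMIs in knockout and 40 in control members (19.0 and 6.43 CPM), a log2 ratio of 1.56 (1.05 to 2.11). The rule genes Hlf and Mecom, fixed in part by the choice of members, stood at 0.14 and −0.13.

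Measured surface and signalling genes likewise stayed within the fold, apart from Adgre5 and Ifitm1. Of 35 listed, 23 were measured, 1 was higher and 1 lower, with a median of 0.01. Adgre5, the adhesion receptor CD97, gave 271 UMIs in knockout and 83 in control members (37.9 and 13.3 CPM, log2 ratio 1.504, 1.14 to 1.88). Ifitm1, an interferon-induced membrane protein, gave 2686 and 3604 UMIs (375 and 580 CPM, −0.63, −0.70 to −0.55). Procr had 207 and 221 UMIs (−0.30, −0.58 to −0.02), Kit, the stem cell factor receptor, 0.22, and Esam 0.34. Below the floor, Ctnnal1 gave 47 UMIs in knockout and 22 in control members (0.89, 0.13 to 1.69). Jam2 gave 25 and 10 (1.12, 0.01 to 2.34), and Socs2 42 and 60 (−0.72, −1.32 to −0.12). Jam3 at 0.97 and Slamf1 at −0.66 had intervals that include 0.

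Among platelet-lineage and stem cell ageing genes, Selp rose. This gene encodes P-selectin, a platelet and endothelial adhesion molecule whose mRNA is known to increase in old mouse stem cells. It gave 320 UMIs in knockout and 93 in control members, or 44.7 and 14.96 CPM, a log2 ratio of 1.58 (1.24 to 1.93). Of 25 listed genes, 7 were measured and 2 were higher, the other being the aldehyde dehydrogenase Aldh1a1 with 173 and 100 UMIs (0.59, 0.22 to 0.96), and 0 were lower. Aldh1a1 stood at 0.05 among members with under 5% mitochondrial UMIs. The platelet genes Pf4, Itga2b and Mmrn1 stood at −0.20, 0.07 and 0.18, and the list's median was 0.18.

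Targets of NRF2, the transcription factor that answers oxidants, were higher in part. Of 26 listed, 18 were measured, 2 were higher and 0 lower, and the median was 0.12. All 8 that missed the floor were above 0, so the counts over measured genes leave out these low ones. Ftl1, the ferritin light chain that stores iron, gave 3999 UMIs in knockout and 2054 in control members (559 and 330 CPM, log2 ratio 0.76, 0.68 to 0.84). Its reads cannot be told apart from those of processed copies where the sequences match. Gclm, the regulatory subunit of the enzyme that limits glutathione synthesis, gave 1610 and 910 UMIs (225 and 146 CPM, 0.62, 0.50 to 0.74). Gsr, glutathione reductase, stood just inside the fold at 0.58, Gclc, the catalytic partner of Gclm, at 0.46, and Txnrd1 and Cbr1 at −0.23 and −0.26. Below the floor, Pir, an iron-binding nuclear protein, gave 72 UMIs in knockout and 4 in control members (log2 ratio 3.97, 2.55 to 5.88), and Nqo1, a quinone reductase, 68 and 20 UMIs (1.56, 0.83 to 2.36). Srxn1, sulfiredoxin, gave 78 and 36 UMIs (0.91, 0.33 to 1.52), and Slc7a11, the cystine transporter, 31 and 12 (1.17, 0.16 to 2.26). Hmox1, heme oxygenase, gave 19 and 1 UMIs (4.04, 1.39 to 9.42), and Me1, malic enzyme, 17 and 2 (2.88, 0.81 to 6.04). Gsta4 and Osgin1 stood at 0.34 and 0.46 with intervals that include 0. Catalase, in the list of 18 measured antioxidant enzymes without selenium, stood at 0.44, and 0 of those 18 were past the fold in either direction.

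Some values of these NRF2 targets varied with division genes, and those of Gclm and Ftl1 also with the level of Hlf and Mecom. Members were split, after values had been seen, by their UMIs of Mki67 and Top2a, both known to peak in cells that divide. There were 150 knockout and 175 control members with 0 such UMIs (35.9% and 41.1%), 126 and 114 with 1 to 4, and 142 and 137 with 5 or more (34.0% and 32.2%). Median depth was 11750 UMIs in knockout and 10246 in control members with 0, and 23182 and 20347 in those with 5 or more, so the split also follows depth. The split follows Hlf and Mecom too. In the lowest tertile of members by Hlf and Mecom per UMI, 54.8% of knockout and 58.9% of control cells had 5 or more. In the highest tertile it was 12.2% and 5.97%. Plasma barcodes with at least 50 Jchain UMIs, which mostly do not divide, had 5 or more such UMIs in 4 of 35 cells in knockout and 5 of 63 in control marrow.

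In members with 5 or more division UMIs, Gclm stood at 309 CPM in knockout and 142 in control cells, a log2 ratio of 1.12 (0.96 to 1.29). In members with 0 it stood at 134 and 142 CPM, a ratio of −0.09 (−0.35 to 0.17), and in those with 1 to 4 at −0.05 (−0.30 to 0.21). Ftl1 had ratios of 0.28 with 0, 0.32 with 1 to 4 and 1.25 (1.13 to 1.36) with 5 or more, Gsr −0.08, 0.51 and 0.86, and Cat 0.12, 0.18 and 0.81. Of the 18 NRF2 targets, 6 were past the fold and higher in members with 5 or more, where 2.51% of 6546 genes were (3.77% in either direction). With 0 such UMIs it was 0 of 18, where 3.35% of 6542 genes were (6.5% in either direction). With 1 to 4 it was also 0 of 18, where 4% of 6545 genes were (2.64% lower, 6.65% in either direction). In the thinned members with 5 or more, Gclm and Ftl1 together had a median of 4 UMIs in knockout cells (middle range 2.25 to 6, highest 18) and 2 in control cells (1 to 3, highest 7). By tertile of Hlf and Mecom per UMI, from lowest to highest, Gclm had ratios of 0.75, 0.74 and 0.15 (−0.13 to 0.42). Ftl1 had ratios of 1.02, 0.81 and 0.20 in these tertiles, Gsr 0.50, 0.67 and 0.66, and Cat 0.74, 0.05 and 0.37. The differences between these classes or tertiles of members could not be tested.

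The values of other genes in the 3 classes, given side by side, were not tested against each other. The log2 ratio of Selp was 2.01, 1.16 and 1.52 in members with 0, 1 to 4 and 5 or more division UMIs, and that of Adgre5 1.80, 1.31 and 1.43. Gpx1 stood at −2.26, −2.33 and −2.46, and Selenow at −3.15, −3.14 and −3.19. Cd48, which marks progenitors that have left the stem cell state, gave 428 UMIs in knockout and 566 in control members over all (59.8 and 91.0 CPM, −0.61, −0.79 to −0.42). It stood at −0.07 (−0.55 to 0.41) with 0 division UMIs, −0.66 (−1.055 to −0.28) with 1 to 4 and −0.77 (−1.01 to −0.53) with 5 or more. Egr1, an immediate early factor, stood at −0.05 (−0.16 to 0.06), −0.29 and −0.78 (−0.90 to −0.66) in the 3 classes, and Nr4a2, a nuclear receptor induced by signals, at −0.49, −1.25 (−1.60 to −0.91) and −0.50.

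Genes that hold stem cells out of division were mixed. Of 21 listed genes of quiescence and cell cycle brakes, 19 were measured, 1 was higher and 1 lower, and the median was −0.09. Txnip, an arrestin-like protein that binds thioredoxin and limits glucose uptake, gave 2469 UMIs in knockout and 1302 in control members (345 and 209 CPM, 0.72, 0.62 to 0.82). Its log2 ratio was 0.84, 0.54 and 0.83 in the 3 division classes. Nr4a2 gave 377 and 559 UMIs (52.7 and 89.9 CPM, −0.77, −0.96 to −0.58), while Cdkn1b, a cyclin kinase inhibitor, stood at 0.31 and Foxo3, a factor of stem cell upkeep, at 0.29.

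Cell cycle genes themselves were within the fold. Of 24 S phase genes and 24 G2 and M phase genes, all measured, 0 were higher and 0 lower in either list, with medians of −0.01 and 0.11. The extremes were Mcm7, a helicase subunit, at −0.45 and Nusap1, a spindle protein, at 0.28. After thinning, at least 2 UMIs of Mki67 and Top2a were found in 138 of 417 knockout members (33.1%, 28.6 to 37.8) and 127 of 421 control members (30.2%, 25.8 to 34.8). In the tertile of members with the highest Hlf and Mecom per UMI, Mki67 stood at 230.3 CPM in knockout and 69.7 in control cells. That rested on 18 of 148 knockout cells and 8 of 134 control cells with 5 or more UMIs of the pair (12.2%, 7.37 to 18.5, and 5.97%, 2.61 to 11.4). These shares overlap and lie near those of plasma barcodes, and no difference is read from them.

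Several immediate early genes were lower. Of 24 listed, 22 were measured, 0 were higher and 3 lower, and the median was −0.23. The 3 were Nr4a2, given above, the stress factor Atf3 with 156 UMIs in knockout and 244 in control members (21.8 and 39.2 CPM, −0.85, −1.15 to −0.55) and Egr3 with 115 and 163 UMIs (−0.71). Fos stood at −0.42, Egr1 at −0.38 and Jun at −0.15. Of this list 18 genes were below 0 and 4 above. The median was −0.07, −0.24 and −0.22 in members with 0, 1 to 4 and 5 or more division UMIs, and the part of handling, thawing and depth was not tested.

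Metabolic lists shifted little. The 13 mitochondrially encoded genes had a median of 0.21 with 0 past the fold, mt-Co1, a cytochrome oxidase subunit, being the highest at 0.55 and mt-Nd2 the lowest at −0.17. This moved with the mitochondrial share given above, and the median was 0.07 among members with under 5% mitochondrial UMIs. The 26 nuclear oxidative phosphorylation genes had a median of −0.07 and 0 past the fold, 22 of them below 0. Of 16 measured glycolysis genes 1 was higher, Eno1 (361 and 123 UMIs, 1.35), whose reads may be shared with a near-identical copy, and the rest had ratios between −0.21 and 0.27. Type I interferon genes, of interest because of the pI-pC, had 9 measured, 0 past the fold and a median of −0.17, with Ly6a lowest at −0.52. Below the floor, Rsad2 gave 139 UMIs in knockout and 58 in control members (1.06, 0.61 to 1.53), and Oas1a 23 and 4 (2.32, 0.77 to 4.31). Ifit1 stood at 0.57 (0.11 to 1.05) and Ifit2 at 0.63 (0.03 to 1.25). The other interferon genes below the floor with UMIs in both libraries stood below 0, with intervals that include 0.

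Stress, lipid and receptor lists held few differences either. Of 13 measured genes of the integrated stress and p53 responses, 0 were past the fold (median 0.06, Cdkn1a −0.24, Trp53inp1 0.40). The 24 measured chaperones and unfolded protein response genes had 0 past the fold and a median of −0.11, between −0.39 for Hspa5, the endoplasmic reticulum chaperone BiP, and 0.35 for Hsph1. The 13 measured ferroptosis genes had a median of 0.02 and only Ftl1 past the fold. The 12 measured cholesterol synthesis genes had a median of −0.18 and 0 past the fold. The 13 measured growth factor and cytokine receptors had a median of 0.07 and 0 past the fold, Il6ra being the highest at 0.48.

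In lineage lists, several genes past the fold had most of their UMIs in 1 cell. Of 14 measured multipotent progenitor genes, 1 was lower, Cd48, and the median was 0.09. Of 13 measured myeloid genes, the repressor Gfi1 was lower (119 and 162 UMIs, −0.65) and F13a1, a coagulation factor of monocytes, higher (182 and 96 UMIs, 0.72), with a median of −0.12. F13a1 stood at 0.13 without predicted doublets and at −0.71 when the rule was applied to thinned barcodes. The lymphoid list had a median of −0.04, and its 1 gene past the fold, Ighm at 3.58, stood at 0.27 without its top member. Jchain and Igkc of the plasma list stood at 4.49 and 4.32, and at −0.06 and −0.62 without their top member. Prg2 and Prss34 stood at −3.87 and −3.42, and at −0.93 and −0.94 without theirs, while Mcpt8, a basophil protease gene, stood at −1.21 and at 0.60 without predicted doublets. The 5 measured erythroid genes had a median of 0.35, the 7 dendritic and class II genes −0.18, and Pecam1, the only measured endothelial gene, 0.30, with 0 past the fold in these 3.

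**Figure D4:**
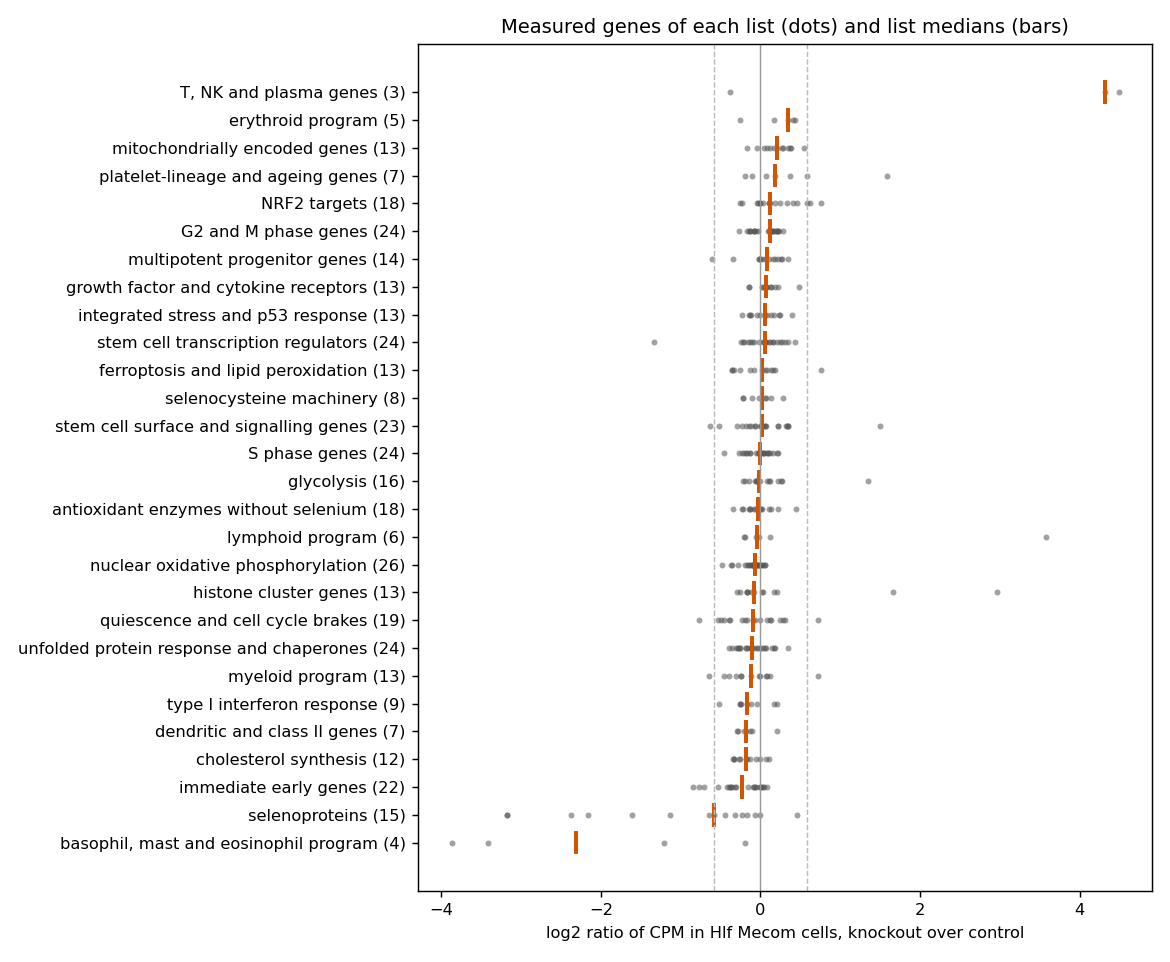
Log2 ratio of knockout over control in Hlf Mecom cells (horizontal axis) for each measured gene (dots) of 28 lists, with each list's median as a bar, the number measured in brackets, and dashed lines at 1.5-fold. The selenoprotein median lies at −0.59 and most other medians near 0. The highest bar, of T, NK and plasma genes, is at 4.32 and the lowest, of basophil, mast and eosinophil genes, at −2.31. Without the top cell of each gene in each library, not drawn, the same measured genes had medians of −0.38 and −0.93.

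Several genes outside these lists were among the 15 highest or lowest. Ctse, the aspartic protease cathepsin E (ENSMUSG00000004552, chromosome 1, 131638306 to 131675505), gave 46 UMIs in knockout and 373 in control members (6.43 and 60.0 CPM), a log2 ratio of −3.22 (−3.70 to −2.78). Phpt1, a histidine phosphatase, stood at −1.42, Wdr89, a WD repeat protein, at −1.29, and the RNases Rnaset2a and Rnaset2b, near-identical copies whose reads may be shared, at −1.48 and −1.41. Among the highest were Dleu2 at 0.92, Tnip3, an inhibitor of NF-kappaB signalling, at 0.81, and Stxbp4 at 0.81.

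Replication histone mRNAs differed by gene. Of 13 measured histone genes 2 were higher, Hist1h2ap with 2409 UMIs in knockout and 268 in control members (2.97, 2.78 to 3.15) and Hist1h2ae with 1872 and 514 (1.66), while the list's median was −0.08. Hist1h4h and Hist1h3f, outside the list, stood at 1.32 and 1.18. Hist1h2ap stood at 3.72, 2.21 and 2.93 in the 3 division classes. These genes have near-identical copies, as do Rpl35 (1.40), Rpl9-ps6 (−1.57) and Dynlt1f (0.90), so how reads were shared between copies is uncertain.

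Most genes that led in members over the other kept barcodes were within the fold between genotypes. Of the 77 leading genes, 2 were higher, Stxbp4 and the class I gene H2-Q6 (0.74). The 4 that were lower were Socs3, a brake on cytokine signals (188 and 315 UMIs, −0.95, −1.22 to −0.68), Nr4a2, Otos (−0.62) and Hes1, a Notch target (241 and 315 UMIs, −0.59). Without its top member in each library, Hes1 stood at −0.55, within the fold. These 6 make 7.79%, against 1.65% of all measured genes, and the median of the 77 was −0.05. Mmrn1, Nkx2-3 and Esam were all within the fold.

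Many of the differences were also present outside the members. Among the genes measured in members, 1.63% were past the fold in the other kept barcodes and 2.14% in the lymphoid-primed Dntt progenitors (454 knockout and 485 control cells). The lymphoid-primed cells are also counted among the other kept barcodes, so these 2 sets are not separate. Of the 56 genes higher in knockout members, 29 were also at least 1.5-fold higher in the other kept barcodes, where 1.1% of the same genes were, and 26 in the lymphoid-primed cells, where 1.15% were. Of the 52 lower, 28 were lower in the other kept barcodes (0.535%) and 36 in the lymphoid-primed cells (0.993%). The selenoprotein median was −0.59 in members, −0.61 in lymphoid-primed cells and −0.70 in the other kept barcodes. Gclm stood at 0.62 in members, 1.09 in lymphoid-primed cells and 1.44 in the other kept barcodes, and Ftl1 at 0.76, 0.91 and 1.28. The NRF2 target median ran likewise at 0.12, 0.20 and 0.48. Levels of Gclm in knockout and control cells were 225 and 146 CPM in members, 111 and 52.0 in lymphoid-primed cells, and 223 and 81.8 in the others. The knockout level of Gclm was thus about the same in members and in the others, while its control level was higher in members. Levels of Ftl1 in the same order were 559 and 330, 609 and 325, and 1183 and 487 CPM. Txnip stood at 0.72, 1.03 and 1.002. Selp stood at 1.58, 1.20 and 1.33, and Ctse at −3.22, −3.53 and −3.08. Atf3 stood at −0.85, −1.03 and −0.25, and Stxbp4 at 0.81, 0.18 and 0.35. The differences between these sets of cells could not be tested.

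**Figure D5:**
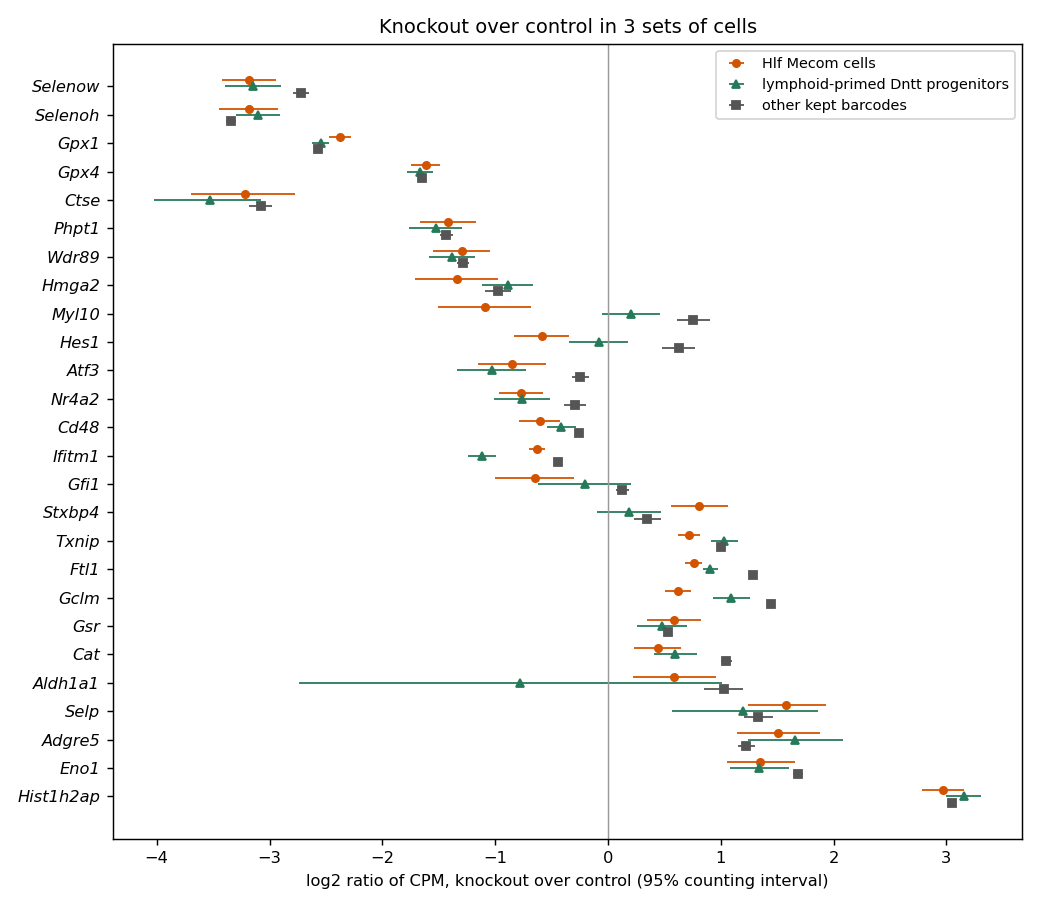
Log2 ratio of knockout over control (horizontal axis) of named genes in Hlf Mecom cells (circles), lymphoid-primed Dntt progenitors (triangles) and other kept barcodes (squares), with exact 95% counting intervals. Selenow, Selenoh, Gpx1, Gpx4, Ctse, Phpt1 and Wdr89 lie far left in all 3, while the ratios, not the levels, of Gclm and Ftl1 are drawn and are lowest in Hlf Mecom cells. The other kept barcodes include the lymphoid-primed cells.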

How the data were processed

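For 2 libraries, 1 per genotype, the authors deposited a matrix of unnormalized UMI counts, made with the 10x Chromium 3′ v3.1 kit, Cell Ranger 6.1.2 and mm10, per the labels' protocols and the submitters' processing notes. Strand settings and annotation release are not stated. Free RNA can give a droplet UMIs of genes its cell does not express, so single UMIs are not read as expression.

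Barcodes were kept and members chosen by the rule given in the report. UMIs were summed over members per library and scaled to CPM. Log2 ratios have exact conditional binomial intervals, shares Clopper-Pearson intervals and levels exact Poisson intervals, all at 95%. Thinning drew 5000 UMIs per barcode without replacement and left out 1 knockout and 5 control members that were shallower. Of barcodes that met the gene limits, 25 knockout and 17 control ones failed the filter on quality. Lymphoid-primed progenitors were kept barcodes with at least 3 Dntt UMIs, at least 1 Flt3 UMI, no Ebf1 and under 0.5% Mpo. The other kept barcodes were all kept barcodes that were not members, and so include them. A set of Hlf-negative Cd34 progenitors held 14 and 43 barcodes and was not compared. Scrublet in scanpy 1.11.5 expected 10% doublets. Its automatic threshold marked 69 knockout barcodes (1.14%) and 193 control barcodes (2.41%), and the control threshold, which marked 82 and 193, was used for both. Doublets were left in except under 1 alternative. TMM factors came from edgeR 4.0.16, and the ratio and interval functions were tested on simulated counts. Python 3.11.15, numpy 2.4.6 and scipy 1.17.1 were used.

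The members and the 29 gene lists were chosen with earlier results of these data known. Genes were named by rule: the markers, all selenoproteins, the 15 highest and 15 lowest measured genes past 1.5-fold (clone-like symbols left out), and from each list those past the fold, up to 4 in each direction, or else its extremes. Other genes given as examples, the division classes and the values without a gene's top member were chosen after values were seen. Alternatives covered the quality filter, the UMI rule, doublets, depth, size factors, equal weights per member, the expression floor and the fold. A few genes that the rule names are not reported here. Gene positions and selenocysteine codons are from GENCODE M21 (GRCm38).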

Additional observations from a re-analysis of the deposited data

Results flagged for a closer look

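These genes were past 1.5-fold in members and past it in the opposite direction in another set of cells. None of these differences was tested, since there was 1 library per genotype. Myl10, a myosin light chain gene, had a log2 ratio of −1.09 in members (79 UMIs in knockout, 146 in control) and 0.76 in the other kept barcodes. Hes1 had −0.59 in members, at the edge of the limit, and 0.63 in the other kept barcodes. Without its top member in each library, Hes1 stood at −0.55, within the fold. Igkc had 4.32 in members and −0.74 in the other kept barcodes, and Jchain 4.49 in members and −0.65 (−1.46 to 0.14) in lymphoid-primed Dntt progenitors. Without the single member that held most of their UMIs, Igkc and Jchain stood at −0.62 and −0.06. F13a1 had 0.72 in members and −1.26 (−1.56 to −0.97) in lymphoid-primed progenitors, and Aldh1a1 0.59 and −0.78 (−2.74 to 1.01). Aldh1a1 was scarce in the lymphoid-primed cells, at 0.54 CPM in knockout and 0.92 in control marrow. The lymphoid-primed intervals of Jchain and Aldh1a1 include 0, so no reversal is read from them.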

How the results depend on the processing

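No paired analysis was possible because there was 1 library per genotype. The log2 ratio of the members' share stayed above 0 under every alternative run (0.26 to 0.53). The share in knockout and control marrow was 5.71% and 3.95% with at least 6 Hlf plus Mecom UMIs and 3.85% and 3.15% with the rule on thinned barcodes, and the knockout share 6.23% with at least 500 genes. Counts of genes higher and lower were 150 and 97 with the rule on thinned barcodes, 191 and 123 with members thinned, 257 and 195 in members without Mki67 and Top2a UMIs, 14 and 10 when 100 CPM was asked for, 500 and 460 when only 20 UMIs were asked for, and 13 and 21 with a fold of 2. Fewer cells or UMIs leave more genes past the fold by counting error, so the counts are not a number of changed genes. The selenoprotein median was −0.81 with the rule on thinned barcodes and −1.62 at 100 CPM, where 5 genes were lower, and no alternative gave a selenoprotein higher by 1.5-fold. In members without Mki67 and Top2a UMIs, Gclm stood at −0.086, F13a1 at −1.17, Prss34 at 1.05, the basophil list at 1.08, the plasma list and Igkc at −0.41 and Jchain at −0.059. With the rule on thinned barcodes, F13a1 stood at −0.71, the plasma list at −0.40, Igkc at −0.41 and Jchain at −0.34. With members thinned, F13a1 stood at −0.20. Without the top member per gene and library, an alternative chosen after seeing the data, the plasma list stood at −0.50, Igkc at −0.62 and Jchain at −0.056. Mcpt8 stood at 0.60 without predicted doublets. The causes were not tested beyond these values. Of 402 values of list medians, 371 lay between the medians of the lower and upper counting bounds of the list's genes. Of 1056 values of named genes, 918 lay within the gene's own counting interval. Where such a range includes 0, a value inside it may still have changed sign. With 1 library per genotype, no value shows the spread between mice.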
